A study of Mus musculus with 12 samples.

Results

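The genes described here are 44 components of the DNA replication machinery, chosen by name for their role, with earlier results of these data known. Each was read from the probe set with the highest mean among those that carry its symbol alone, and all 44 had such a probe set, among 19938 genes measured in this way. The arrays profile natural killer (NK) cells, innate lymphocytes that kill infected and transformed cells, sorted as CD3-negative NK1.1-positive cells from C57BL6 mice aged 7 to 10 weeks and matched for age and sex. The 4 groups, each of 3 arrays that the labels call biological replicates, are miR142 WT spleen, miR142 KO spleen, miR142 WT bone marrow and miR142 KO bone marrow. WT mice carry the microRNA gene and KO mice lack it, and the labels give no further allele, Cre driver, treatment or pooling of animals. Because nothing ties each array to an animal of its own, the p-values measure the spread between these samples. Values are log2 signals, so a difference of 1 is a doubling.

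DNA replication starts where the origin recognition complex, with Cdc6 and Cdt1, loads the ring-shaped MCM2-7 helicase onto DNA in G1 phase, a step called licensing. At the start of S phase the kinase Cdc7 with its partner Dbf4, and the factors Mcm10, Cdc45 and GINS, turn the ring into an active helicase. Polymerases alpha, delta and epsilon then copy the strands, held by the sliding clamp PCNA, which the RFC complex loads, while RPA coats single strands. Resting lymphocytes keep many of these genes low, and dividing ones raise them through E2F transcription factors. NK cells arise in bone marrow, where their precursors divide, and most NK cells of the spleen are resting.

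The gene removed in the knockout makes a pair of mature microRNAs, shown because they define the genotype. Their sequences are RefSeq's (build GRCm38.p6, plus strand, chr11:87756867-87756887 and chr11:87756903-87756925), with the seed, bases 2 to 8, in capitals.
miR-142a-5p: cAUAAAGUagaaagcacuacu
miR-142a-3p: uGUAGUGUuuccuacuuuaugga

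Promoters, from 250 bases before to 50 bases after the annotated start, were taken from RefSeq (GRCm38.p6) and matched 36 of the 44 genes, with 43 promoters. They are shown for Mcm3, Mcm5, Mcm7, Cdt1 and Rfc4, which had the smallest p-values after Mcm4 in the comparison of knockout and wild type bone marrow, since these genes moved together there. Capitals mark the E2F site searched on both strands as TTTCCCGC, TTTCGCGC, TTTGCCGC or TTTGGCGC. The windows are chr1:20820263-20820562 (minus strand), chr8:75109259-75109558 (plus), chr5:138171834-138172133 (minus), chr8:122567765-122568064 (plus) and chr16:23127681-23127980 (minus), in the order printed, and each reads 5′ to 3′ along its gene.
Mcm3 promoter: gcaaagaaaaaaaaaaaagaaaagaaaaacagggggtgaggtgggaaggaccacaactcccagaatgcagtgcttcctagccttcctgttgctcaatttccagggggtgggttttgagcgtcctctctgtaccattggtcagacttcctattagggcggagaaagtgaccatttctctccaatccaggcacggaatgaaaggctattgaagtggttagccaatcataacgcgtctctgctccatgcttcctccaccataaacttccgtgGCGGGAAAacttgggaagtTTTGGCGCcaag
Mcm5 promoter: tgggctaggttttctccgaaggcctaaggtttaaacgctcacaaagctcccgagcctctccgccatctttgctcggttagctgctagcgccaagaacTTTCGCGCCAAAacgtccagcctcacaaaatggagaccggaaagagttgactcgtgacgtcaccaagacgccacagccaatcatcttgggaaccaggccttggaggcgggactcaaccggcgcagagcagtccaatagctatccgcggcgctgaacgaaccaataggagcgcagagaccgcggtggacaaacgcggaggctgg
Mcm7 promoter: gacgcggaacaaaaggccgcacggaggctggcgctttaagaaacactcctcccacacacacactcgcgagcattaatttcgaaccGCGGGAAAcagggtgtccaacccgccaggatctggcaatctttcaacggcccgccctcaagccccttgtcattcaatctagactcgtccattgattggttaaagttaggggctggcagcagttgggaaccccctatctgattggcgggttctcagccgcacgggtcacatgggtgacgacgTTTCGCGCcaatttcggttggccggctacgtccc
Cdt1 promoter: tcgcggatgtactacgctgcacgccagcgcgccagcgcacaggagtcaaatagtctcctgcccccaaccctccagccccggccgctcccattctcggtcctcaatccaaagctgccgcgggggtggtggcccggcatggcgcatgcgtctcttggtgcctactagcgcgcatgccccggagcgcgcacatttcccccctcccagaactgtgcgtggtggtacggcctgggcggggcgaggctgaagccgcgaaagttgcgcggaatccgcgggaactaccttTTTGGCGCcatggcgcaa
Rfc4 promoter: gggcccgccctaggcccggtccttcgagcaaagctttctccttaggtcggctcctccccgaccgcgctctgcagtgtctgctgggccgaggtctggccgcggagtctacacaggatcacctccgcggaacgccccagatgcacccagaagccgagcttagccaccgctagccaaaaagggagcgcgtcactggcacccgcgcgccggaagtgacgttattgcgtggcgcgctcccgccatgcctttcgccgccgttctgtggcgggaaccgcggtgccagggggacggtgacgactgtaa
Mcm3 held matches that begin 20 and 39 bases downstream of the start, and Cdt1 one at 33. In Mcm5 the 2 matches, on opposite strands, overlap and begin 153 and 149 bases upstream. Mcm7 had one 165 bases upstream and one 17 bases downstream, and its second annotated promoter and the Rfc4 promoter held none of these letters. Over all members 14 of 43 promoters (32.6%) held the E2F letters, against 744 of all 32851 promoters of this length (2.26%). The CCAAT box (CCAAT, both strands) was in 58.1% of the members' promoters and 37.4% of all, and the GC box (GGGCGG, both strands) in 69.8% and 35.7%. These matches describe letters in a window and not bound sites.

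The genotype and cell labels were checked first. The Mir142 signal lay between 6.77 and 8.25 in the 6 wild type arrays and between 4.05 and 4.70 in the 6 knockout arrays. All 8 NK markers looked at (Ncr1, Klrb1c, Klrk1, Nkg7, Eomes, Tbx21, Il2rb and Prf1) lay above the filter, and their median level, relative to each gene's mean, was between -0.22 and 0.15 in every array. Markers of other cells differed between the groups too. Genes were tested when their mean signal was above the 40th percentile, 5.49. This left 11963 genes and 41 members, without Orc1, Mcm8 and Chaf1b.

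The replication genes were highest in wild type bone marrow and lowest in the spleen of either genotype. The mean of wild type bone marrow was the highest of the 4 group means for 41 of the 44 genes, and knockout bone marrow came second for 31. Knockout spleen was lowest for 28 and wild type spleen for 15. Relative to each gene's mean over 12 arrays, the median of the 44 genes was -0.16, -0.19 and -0.22 in wild type spleen arrays 1, 2 and 3 and -0.22, -0.36 and -0.32 in knockout spleen. It was 0.70, 0.38 and 0.27 in wild type bone marrow and 0.29, 0.09 and -0.26 in knockout bone marrow. The bone marrow arrays of each genotype were spread wider than the spleen arrays, and knockout bone marrow 3 lay at the level of the spleen.

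**Figure D1:**
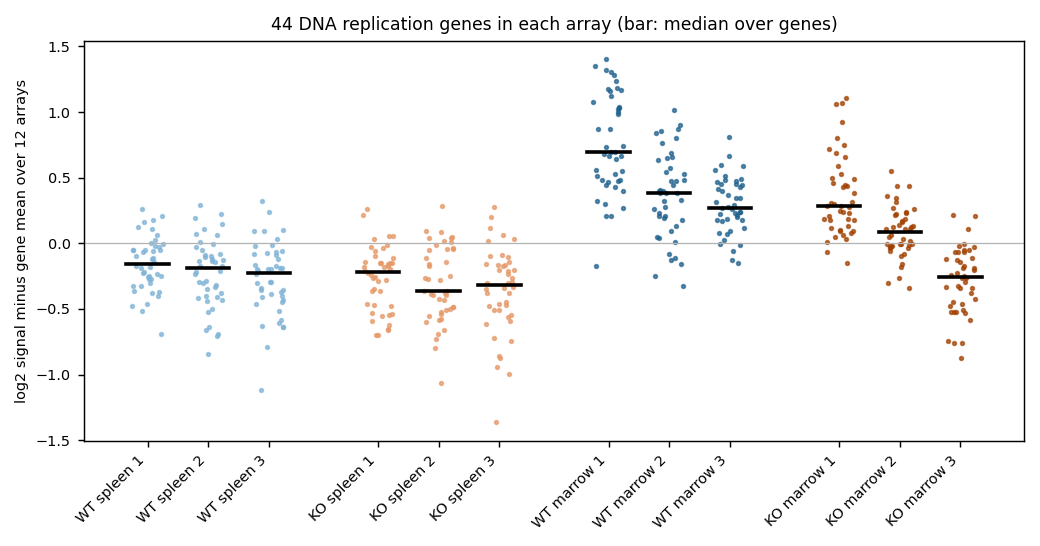
Log2 signal of each of the 44 genes minus its mean over 12 arrays (y axis) in each array (x axis), points being genes and black bars the median over genes. Medians run from 0.27 to 0.70 in wild type marrow and from -0.26 to 0.29 in knockout marrow, and all spleen medians lie below 0.

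Within bone marrow the genes moved together from array to array. Wild type bone marrow 1 was the highest of its 3 arrays for 37 of the 44 genes, where 32.9% of all tested genes had their highest value there. Knockout bone marrow 1 was also the highest of its group for 37 genes (33.5% of all tested genes), and knockout bone marrow 3 the lowest for 40 (38.0%). No spleen array led in more than 18 of the 44 genes. The median standard deviation of a member was 0.31 in wild type and 0.26 in knockout bone marrow, against 0.14 for all tested genes in each of these groups. It was 0.14 in wild type spleen and 0.20 in knockout spleen, where all tested genes had 0.12 and 0.15. Tyms, the thymidylate synthase that supplies dTMP, had the widest spread in knockout bone marrow (8.30, 7.46 and 6.72, SD 0.79), and Gins1 in wild type bone marrow (7.11, 5.71 and 6.35, SD 0.70). In bulk samples such as these, fewer dividing cells and less RNA per dividing cell cannot be told apart.

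The first comparison set bone marrow against spleen within wild type mice. Replication genes were higher in bone marrow: 17 of the 41 tested members were called and 0 were lower, where 4.34% of all tested genes were called higher (limma, Benjamini-Hochberg adjusted p under 0.05, n = 3 arrays per group). The difference was above 0 for all 41 members (47.1% of all genes), with a median of 0.79 (1.73-fold) where the median of all genes was -0.02. In 33 members all bone marrow arrays lay above all spleen arrays, as in 16.4% of all genes. The largest differences were in Rrm2 (3.26-fold), Prim1 and Tyms, and the smallest in Rpa2, Rfc5 and Rpa1.

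Of the 6 subunits of the MCM2-7 helicase, which unwinds the parental strands, 5 were called and Mcm4 was not (0.64 ± 0.21, adjusted p = 0.108). Mcm7 read 6.87, 6.80 and 6.51 in wild type spleen, 6.48, 6.37 and 6.63 in knockout spleen, 8.10, 7.51 and 7.91 in wild type bone marrow and 7.60, 7.33 and 7.10 in knockout bone marrow. Its bone marrow arrays lay above all spleen arrays in both genotypes, and the wild type difference was 1.22 ± 0.14 (limma, adjusted p = 0.00125). Mcm3 read 6.72, 6.59 and 6.64 in wild type spleen, 6.46, 6.72 and 6.53 in knockout spleen, 8.23, 7.65 and 7.51 in wild type bone marrow and 7.28, 7.13 and 6.47 in knockout bone marrow. Here knockout bone marrow 3 fell among the spleen arrays, while the wild type groups did not overlap (1.22 ± 0.21, limma adjusted p = 0.00921). Mcm5 read 6.89, 6.93 and 6.93 in wild type spleen, 6.77, 6.76 and 6.97 in knockout spleen, 8.01, 7.61 and 7.38 in wild type bone marrow and 7.44, 7.12 and 6.87 in knockout bone marrow. The wild type difference was 0.83 ± 0.16 (limma, adjusted p = 0.0128). Mcm6 read 8.76, 8.77 and 8.57 in wild type spleen, 8.85, 8.85 and 8.49 in knockout spleen, 9.70, 9.40 and 9.26 in wild type bone marrow and 9.39, 9.05 and 8.95 in knockout bone marrow. Bone marrow was above spleen in every array of both genotypes, with a wild type difference of 0.78 ± 0.16 (limma, adjusted p = 0.0193), and Mcm2 stood at 1.03 ± 0.22 (limma, adjusted p = 0.0236).

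**Figure D2:**
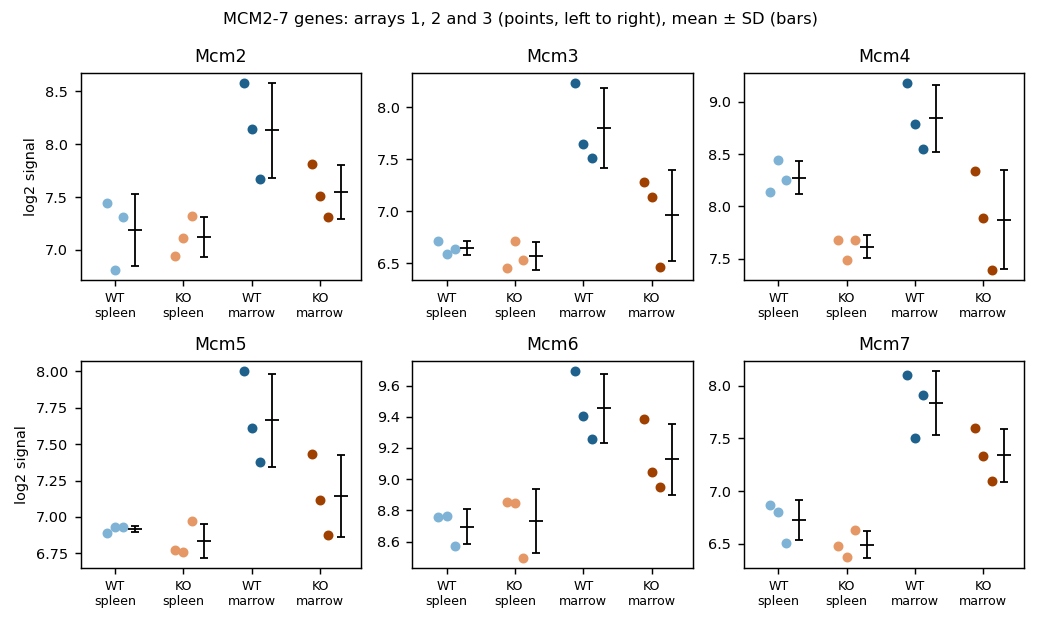
Log2 signal (y axis) of the 6 MCM2-7 genes in the 3 arrays of each group (points) with the mean and SD (bars). In all 6 genes the wild type marrow arrays lie above the wild type spleen arrays, and in Mcm3 and Mcm4 the knockout marrow arrays all lie below the wild type ones.

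Of the 8 factors that activate the helicase 3 were called, Mcm10, Gins1 and Dbf4. Mcm10 read 5.75, 5.81 and 5.62 in wild type spleen, 5.76, 6.24 and 6.06 in knockout spleen, 6.97, 7.13 and 6.49 in wild type bone marrow and 6.45, 6.34 and 6.10 in knockout bone marrow. Wild type bone marrow lay above all other arrays, though narrowly for its array 3 against knockout bone marrow 1 (6.49 and 6.45). The difference between wild type tissues was 1.18 ± 0.18 (limma, adjusted p = 0.00461). Gins1, a GINS subunit, read 5.47, 5.08 and 5.43 in wild type spleen and 7.11, 5.71 and 6.35 in wild type bone marrow (1.23 ± 0.29, limma adjusted p = 0.0348). Dbf4, the activating subunit of Cdc7 kinase, read 6.87, 7.17 and 6.41 and 7.86, 7.59 and 7.47 (0.92 ± 0.22, limma adjusted p = 0.0361). Neither gene's groups overlapped. Cdc45, which joins the helicase with GINS, was at 1.04 ± 0.29 and missed the threshold (adjusted p = 0.0583). Of licensing factors 0 of 4 tested were called at this threshold. An unadjusted limma p under 0.05 was found in 4 of 4 (22.9% of all genes), with differences from 0.45 in Orc2 to 0.91 in Orc6.

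Of the polymerase and primase genes 4 of 8 were called. Prim1, the catalytic primase subunit that lays down the RNA primer, read 7.25, 6.84 and 6.84 in wild type spleen and 8.77, 8.22 and 7.95 in wild type bone marrow, a difference of 1.35 ± 0.33 (limma, adjusted p = 0.0383). Pole, the leading-strand polymerase, read 5.96, 5.79 and 5.58 and 7.50, 7.02 and 6.40 (1.27 ± 0.30, limma adjusted p = 0.032). In both genes the wild type bone marrow arrays lay above all wild type spleen arrays. Pola1, the polymerase alpha catalytic subunit, read 7.01, 6.78 and 6.62 and 8.24, 7.94 and 7.38 (1.13 ± 0.26, limma adjusted p = 0.0308). Pole2, an accessory subunit of polymerase epsilon, differed by 1.00 ± 0.24 (limma, adjusted p = 0.0335). The other primase subunit, Prim2, was at 0.36 ± 0.16 and was not called.

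The genes of nucleotide supply had the largest median, 1.35 over 3 genes, and 2 were called. Rrm2, the regulated subunit of ribonucleotide reductase, read 6.78, 6.30 and 6.04 in wild type spleen and 8.46, 7.99 and 7.38 in wild type bone marrow, with a difference of 1.70 ± 0.34 (limma, adjusted p = 0.0171). Its partner Rrm1 read 7.50, 7.65 and 7.34 and 9.14, 8.42 and 8.39 (1.20 ± 0.30, limma adjusted p = 0.0389). Neither gene's wild type groups overlapped. Tyms was at 1.35 ± 0.38 and did not pass (adjusted p = 0.0635). Lig1, the ligase that seals Okazaki fragments, read 7.11, 6.63 and 6.99 and 8.42, 7.67 and 7.74 (1.09 ± 0.21, limma adjusted p = 0.0138). Tipin, which with Timeless protects the fork, read 7.14, 7.51 and 7.24 and 8.64, 8.18 and 8.10 (1.05 ± 0.18, limma adjusted p = 0.00939). Chaf1a, a subunit of the chromatin assembly factor that places histones behind the fork, read 5.82, 5.79 and 5.83 and 6.99, 6.30 and 6.36 (0.79 ± 0.16, limma adjusted p = 0.018). In each of these 3 genes every wild type bone marrow array was above every wild type spleen array.

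The clamp and its loader were closer between tissues, with a median of 0.40. In limma 0 of 6 were called, and 4 had an unadjusted p under 0.05 (22.9% of all genes). Pcna read 10.93, 10.93 and 10.95 in wild type spleen and 11.46, 11.25 and 11.15 in wild type bone marrow (0.40 ± 0.14, limma adjusted p = 0.111). Its groups did not overlap. The single-strand binding subunits Rpa1 (0.15 ± 0.13) and Rpa2 (0.06 ± 0.25) were not called. Rpa1 read 7.96, 7.85 and 8.0 in wild type spleen, 8.02, 7.99 and 7.62 in knockout spleen, 8.26, 8.01 and 8.06 in wild type bone marrow and 8.10, 7.94 and 7.79 in knockout bone marrow. Its wild type bone marrow arrays lay just above its wild type spleen arrays, and its knockout groups overlapped.

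These calls depended on wild type bone marrow 1, the array with the highest replication level. Without it 1 of 41 members was called, Mcm7, although the median difference was still 0.54. Calls over all genes fell too, from 643 to 82. The count was 10 without wild type spleen 1, 8 without wild type spleen 2, 7 without wild type spleen 3 and 11 without wild type bone marrow 2. Over all genes 323, 294, 147 and 395 were called in these fits. Granulocyte markers moved the same way, with 7 of 9 tested markers called higher in wild type bone marrow than in wild type spleen. Of all genes 4.34% were called higher, and the median of these markers was 2.03. The log2 of their summed signal was 9.44 to 10.3 in wild type spleen, 10.0 to 11.1 in knockout spleen, 12.2 to 12.5 in wild type bone marrow and 10.7 to 11.7 in knockout bone marrow, and 7 others, Ly6g, Ctsg, Chil3, Ltf, Mmp9, Mmp8 and Ms4a3, lay below the filter. With the level of these markers as a covariate in limma, 0 members were called and 3 had an unadjusted p under 0.05 (0 of all genes were called), while the median difference was 0.92. Of 7 tested T cell markers 3 were higher too, with a log2 summed signal of 10.3 to 10.4 in wild type spleen and 11.1 to 11.3 in wild type bone marrow, and their part in the result was not tested. Of other lists, 1 of 5 tested erythroid markers, Tfrc, was called higher in wild type bone marrow, and the median of the list was 0.06. Of 6 tested progenitor markers Myb was called higher and Kit lower, with a list median of 0.07. Of 3 tested monocyte markers Lyz2 was called higher and Ms4a6c lower, with a list median of 0.23. The NK markers all lay below 0 in this comparison (8 of 8, median -0.24). Prf1 was called lower, and 5 had an unadjusted limma p under 0.05 (22.9% of all genes). The first run of array numbers held wild type bone marrow 1 and 2 wild type spleen arrays. Its median was 0.89 (41 of 41 members higher). In the second run, with 2 wild type bone marrow arrays and 1 wild type spleen array, the median was 0.57 (38 of 41 higher).

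In knockout mice the same comparison called 0 of 41 members in limma, with 9 at an unadjusted p under 0.05 (9.25% of all genes), where 0.318% of all genes were called. The median was 0.25 (1.19-fold), 32 of 41 members had a difference above 0 (48.9% of all genes), and in 8 the arrays did not overlap (7.62% of all genes): Mcm6, Mcm7, Gins1, Prim1, Pold2, Pole2, Lig1 and Tipin. Prim1 had the largest difference, with 6.66, 6.88 and 6.0 in knockout spleen and 8.11, 7.92 and 6.92 in its bone marrow (1.11 ± 0.37, 95% interval 0.30 to 1.92, limma adjusted p = 0.348). Mcm7 was at 0.64 ± 0.16 (limma, adjusted p = 0.178). Rrm2, largest in wild type, read 8.22, 7.59 and 6.65 in knockout bone marrow and 6.87, 6.76 and 6.77 in spleen, so its groups overlapped (0.41 ± 0.38, 95% interval -0.42 to 1.24). Without knockout spleen 3 the median over members was 0.05, and without knockout bone marrow 1 it was 0.09. With the erythroid and progenitor marker level as a covariate it turned to -0.05, with 19 of 41 members above 0. Of the marker lists, 1 of 3 monocyte markers was called higher in knockout bone marrow.

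**Figure D3:**
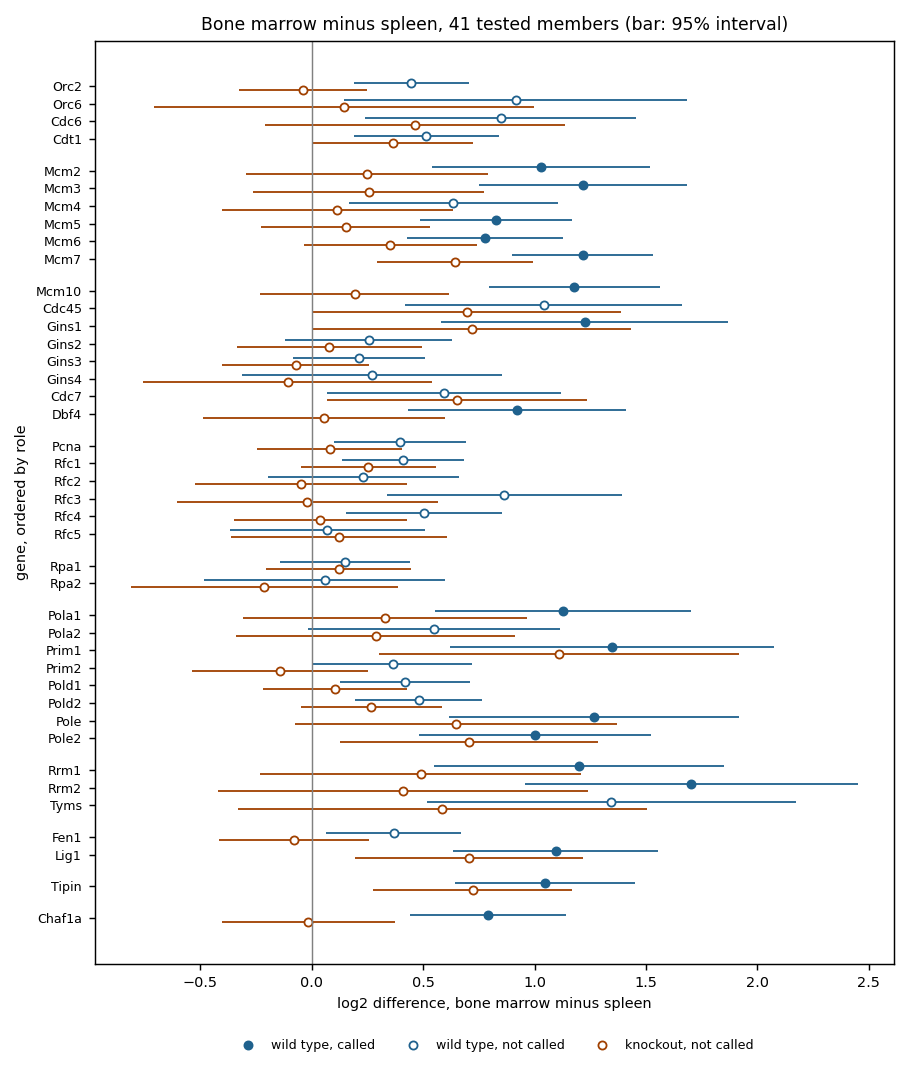
Log2 difference between bone marrow and spleen (x axis) for the 41 tested members (y axis, ordered by role) in wild type (blue) and knockout (brown), with 95% intervals and filled points for called genes. All 41 wild type differences lie above 0 with 17 called, and in knockout 32 lie above 0 with 0 called.

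The knockout was then set against wild type in bone marrow. Replication genes were lower in knockout: 7 of 41 members were called lower and 0 higher, where 4.73% of all tested genes were called lower (limma, n = 3 arrays per group). The difference was below 0 for 40 of 41 members (51.9% of all genes), with a median of -0.55 (1.46-fold lower) against -0.01 for all genes. In 13 members every knockout array lay below every wild type array, as in 17.8% of all genes. This comparison uses the same wild type bone marrow arrays as the one between tissues, so the 2 are not independent.

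The called genes came from the helicase, its loading, the clamp loader and polymerase epsilon. Of the MCM2-7 genes 4 of 6 fell and the median was -0.73. Mcm4, part of the core that drives unwinding, fell by 1.11 ± 0.24 (limma, adjusted p = 0.0139, 2.16-fold). Mcm4 read 8.13, 8.44 and 8.25 in wild type spleen, 7.68, 7.49 and 7.68 in knockout spleen, 9.18, 8.79 and 8.55 in wild type bone marrow and 8.34, 7.89 and 7.39 in knockout bone marrow. All knockout bone marrow arrays lay below all wild type ones, and the same was true in spleen. Mcm3 fell by 0.97 ± 0.24 (limma, adjusted p = 0.0269) and its groups did not overlap. Mcm7 fell by 0.70 ± 0.16 and Mcm5 by 0.68 ± 0.17 (limma, adjusted p = 0.0199 and 0.033), and in both the highest knockout array lay above the lowest wild type array. Mcm2 (-0.76 ± 0.25) and Mcm6 (-0.37 ± 0.18) did not pass.

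Cdt1, the loading factor that licenses origins, fell by 0.60 ± 0.17 (limma, adjusted p = 0.0439). Cdt1 read 7.24, 7.25 and 7.09 in wild type spleen, 6.53, 6.93 and 6.63 in knockout spleen, 7.91, 7.56 and 7.52 in wild type bone marrow and 7.36, 7.17 and 6.93 in knockout bone marrow. Its knockout arrays were below its wild type arrays in both tissues. Rfc4, a clamp loader subunit, fell by 0.75 ± 0.18 (limma, adjusted p = 0.0231). Rfc4 read 7.20, 7.31 and 7.14 in wild type spleen, 7.05, 6.81 and 6.82 in knockout spleen, 7.90, 7.77 and 7.38 in wild type bone marrow and 7.30, 6.86 and 6.86 in knockout bone marrow. Again the knockout lay below wild type in every array of both tissues. Pole2 fell by 0.96 ± 0.26 (limma, adjusted p = 0.0459). Pole2 read 6.16, 5.56 and 5.71 in wild type spleen, 5.36, 5.10 and 4.96 in knockout spleen, 6.93, 6.92 and 6.57 in wild type bone marrow and 6.33, 5.87 and 5.39 in knockout bone marrow. Each tissue's knockout arrays again lay below its wild type arrays.

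Other members pointed the same way without passing. Pola1 stood at -0.96 ± 0.29 (limma, adjusted p = 0.0646), Rfc3 at -0.82 ± 0.27 (0.0852), Mcm10 at -0.65 ± 0.19 (0.0617) and Gins3 at -0.50 ± 0.15 (0.0616), each number in parentheses being the adjusted p. The 3 nucleotide supply genes had a median of -0.59 but wide intervals, such as -1.56 to 0.10 for Rrm2, whose arrays overlapped. Rfc5 was the 1 member above 0, at 0.16 ± 0.22 (95% interval -0.33 to 0.64). Rfc5 read 8.35, 8.28 and 9.0 in wild type and 8.83, 8.56 and 8.32 in knockout bone marrow, so 2 of its wild type arrays were lower than 2 of its knockout arrays.

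The count again depended on a few arrays, and calls over all genes fell in the same fits. Without wild type bone marrow 1 it was 0 (8 members at an unadjusted p under 0.05 in limma) with a median of -0.18, without knockout bone marrow 3 it was 1 with a median of -0.33, without knockout bone marrow 2 it was 2, and without knockout bone marrow 1 it was 11. Without both wild type bone marrow 1 and knockout bone marrow 3 it was 0 (5 at an unadjusted p under 0.05), with a median of -0.04. Calls over all genes, 1035 in the main fit, were 371 without wild type bone marrow 1 and 700 without knockout bone marrow 3. They were 727 without knockout bone marrow 2 and 942 without knockout bone marrow 1. Without wild type bone marrow 1 and knockout bone marrow 3 together they were 289. The first run of array numbers held 1 wild type and 3 knockout bone marrow arrays, which gave a median of -0.76, and the second held no knockout bone marrow array. In the same comparison 4 of 9 tested granulocyte markers fell (4.73% of all genes), with a median of -1.20 and the summed levels given above. With their level as a covariate 0 members were called in limma (5 at an unadjusted p under 0.05, and 55 of all genes called), and the median was -0.60. Of 7 tested T cell markers 4 were lower as well, led by Cd3d (-3.14 ± 0.26), with a log2 summed signal of 11.1 to 11.3 in wild type and 9.77 to 10.1 in knockout bone marrow and with Cd4 and Cd8b1 below the filter. Dendritic cell markers ran the other way, with 1 of 5 called higher and a log2 summed signal of 10.5 to 10.8 in wild type and 11.7 to 11.9 in knockout bone marrow. Of the B cell, plasma cell, monocyte and platelet lists 0 markers were called by limma in this comparison (1 monocyte marker had an unadjusted p under 0.05), while 1 of 5 erythroid markers fell and 2 of 6 progenitor markers rose and 1 fell. The part of T and dendritic cell markers in the result was not tested.

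In spleen 0 of 41 members were called in limma between knockout and wild type, with 4 at an unadjusted p under 0.05 (22.1% of all genes), where 9.11% of all tested genes were called. The median was -0.09, 24 of 41 members were below 0 (52.8% of all genes) and the differences ran from -0.66 in Pole2 to 0.56 in Rrm2. Cdt1 was at -0.45 ± 0.15 (limma, adjusted p = 0.0874), Pole2 at -0.66 ± 0.24 (0.119) and Mcm4 at -0.59 ± 0.21 (0.123), with the adjusted p in parentheses. In 8 members all knockout arrays lay below all wild type arrays (14.0% of all genes): Cdt1, Mcm4, Gins3, Pcna, Rfc4, Rpa2, Pold2 and Pole2. Chaf1a was the 1 member whose knockout arrays all lay above, at 5.97, 6.16 and 5.91 against 5.82, 5.79 and 5.83 (0.26 ± 0.16). Prim2 was at 0.41 ± 0.16 and Mcm10 at 0.33 ± 0.18, and neither passed. Of 5 tested dendritic cell markers 4 rose in knockout spleen, with a log2 summed signal of 10.8 to 10.9 in wild type and 12.1 to 12.2 in knockout, and Flt3, Siglech, Xcr1 and Clec9a below the filter. Of 7 tested T cell markers 2 fell (10.3 to 10.4 and 9.83 to 10.1), and of 3 tested monocyte markers 2 fell (11.2 to 11.4 and 10.1 to 10.3), with Csf1r and Cd14 below the filter. Granulocyte markers lay above 0 in 9 of 9, with S100a8 called (1.81 ± 0.37), and of 6 progenitor markers Hoxa9 and Meis1 rose and Kit fell. With the granulocyte level as a covariate 0 members were called in limma (1 at an unadjusted p under 0.05), and the median was 0.007. With the erythroid and progenitor level 2 were called lower and the median was -0.18, with 32 of 41 members below 0. Over all genes 410 were called with the granulocyte level and 714 with the erythroid and progenitor level. The part of dendritic, T and monocyte cells in the result was not tested. Without knockout spleen 3 the median over members was 0.09, with 26 of 41 above 0. In limma 1 member was called without knockout spleen 2 or without knockout bone marrow 3 (880 and 1083 of all genes). The median was -0.17 within the first run, which held 1 knockout and 2 wild type spleen arrays, and -0.05 within the second, which held 2 and 1.

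**Figure D4:**
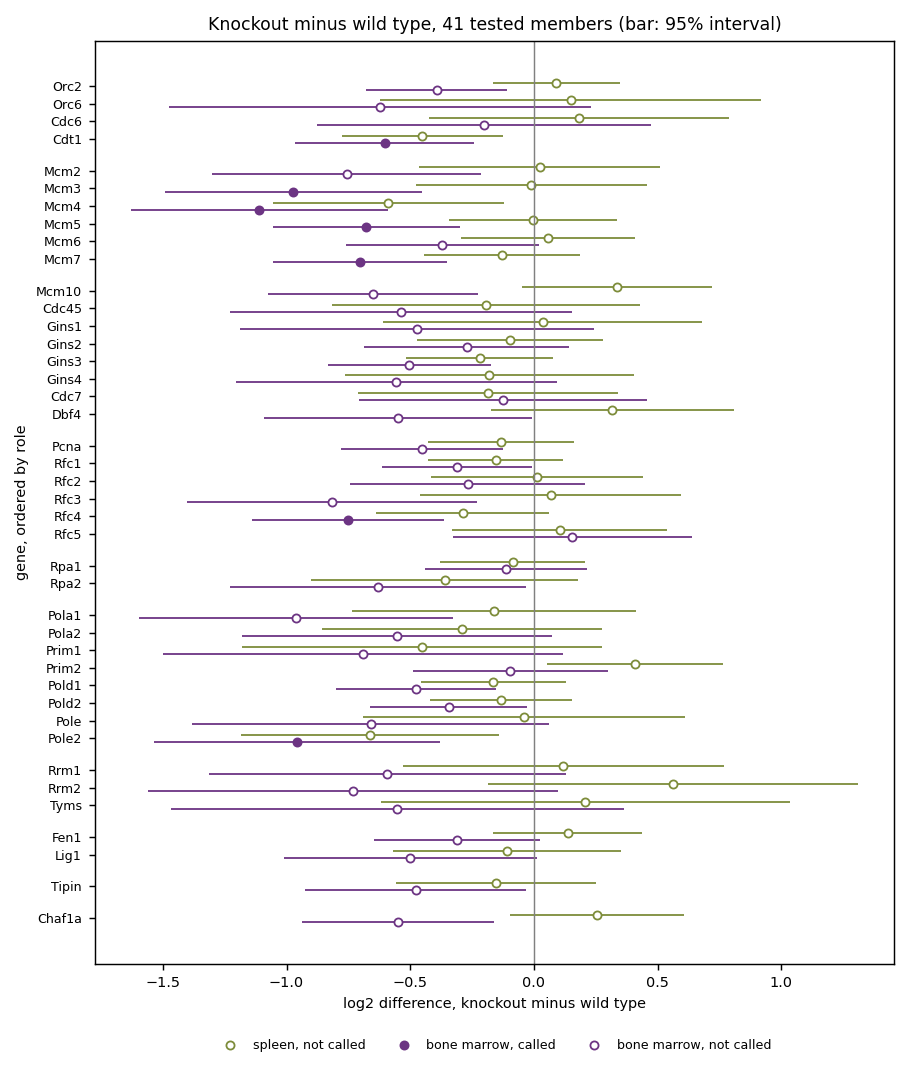
Log2 difference between knockout and wild type (x axis) for the 41 tested members (y axis, ordered by role) in spleen (green) and bone marrow (purple), with 95% intervals and filled points for called genes. In bone marrow 40 of 41 differences lie below 0 with 7 called, and in spleen they lie on both sides of 0 with 0 called.

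Averaged over both tissues, 10 of 41 members were called lower in knockout and 0 higher, where 10.3% of all genes were called lower, and 39 of 41 differences were below 0 (51.6% of all genes). The median was -0.29 (1.23-fold lower). Mcm4 (-0.85 ± 0.15), Cdt1 (-0.53 ± 0.10), Pole2 (-0.81 ± 0.17) and Rfc4 (-0.52 ± 0.11) had the smallest p-values (limma, adjusted p = 0.00177, 0.00369, 0.00484 and 0.00635). These 4 were called in every fit that left out 1 array. Mcm7, Mcm3 and Mcm5 were also called, as were Gins3, Pold1 and Pcna, which had not passed in either tissue alone. Of the 12 fits that left out 1 array, Mcm7 was called in 11, Gins3 in 10, Pold1 in 5, Mcm3 in 4, Mcm5 in 2 and Pcna in 1. Gins3 read 6.41, 6.48 and 6.23 in wild type spleen, 6.13, 6.02 and 6.20 in knockout spleen, 6.56, 6.34 and 6.74 in wild type bone marrow and 6.33, 6.14 and 5.91 in knockout bone marrow. Its knockout arrays were lower in both tissues (-0.36 ± 0.09, limma adjusted p = 0.0188). Pold1, the polymerase delta catalytic subunit, differed by -0.32 ± 0.09 and Pcna by -0.29 ± 0.09 (limma, adjusted p = 0.031 and 0.0474). In the knockout Pcna read 10.76, 10.62 and 10.88 in spleen and 11.17, 10.98 and 10.65 in marrow, and its knockout spleen arrays all lay below its wild type ones. Without wild type bone marrow 1, 5 of the 10 remained (Mcm4, Cdt1, Pole2, Rfc4 and Gins3), and without it and knockout bone marrow 3 together 3 did. The median was -0.16 without the first of these arrays (32 of 41 below 0) and -0.09 without both. Without wild type spleen 1 or wild type spleen 3 the count was 6. Calls over all genes, 2290 in the main fit, were 1675 without wild type bone marrow 1. They were 1514 without it and knockout bone marrow 3, 1848 without wild type spleen 1 and 2056 without wild type spleen 3. Over both tissues 4 of 5 dendritic cell markers rose, 3 of 7 T cell, 2 of 3 monocyte and 1 of 9 granulocyte markers fell, and of 6 progenitor markers 2 rose and 2 fell. With the granulocyte level as a covariate 5 members were called in limma, 4 of them among the 10, with a median of -0.31. With the erythroid and progenitor level instead 6 were called, 4 of them among the 10, with a median of -0.49. Over all genes 1521 were called with the granulocyte level and 961 with the erythroid and progenitor level. The part of dendritic, T and monocyte cells was not tested.

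Whether the knockout effect differed between tissues was tested directly. In 39 of 41 members the bone marrow effect was the lower (52.0% of all genes), with a median difference of effects of -0.43. Without wild type bone marrow 1 the median was -0.13 (29 of 41 below 0), and without it and knockout bone marrow 3 it turned to 0.03 (19 of 41 below 0). At the threshold 0 members were called in limma and 10 had an unadjusted p under 0.05 (9.13% of all genes). Mcm10 had the smallest p (-0.98 ± 0.28, 95% interval -1.60 to -0.37, limma adjusted p = 0.315), and Rrm2 the largest difference (-1.29 ± 0.55, adjusted p = 0.516). Just 1 of all 11963 genes (0.00836%) was called in this test. The test was also run on simulated data with 200 of 11963 genes changed. Noise there was independent between genes, whereas the members moved together. In those data the test recovered 38% of changes of 1 and 1.3% of changes of 0.5. A count of 0 therefore does not show that the effects were equal.

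Genes of the pathway outside the 44 were also read. Of 36 tested further replication genes 8 were called higher in wild type bone marrow than wild type spleen and 0 lower. Of all genes 4.34% were called higher, and the median of the list was 0.31. The smallest p-values were those of Rnaseh2b, a subunit of the enzyme that removes ribonucleotides from DNA (1.08 ± 0.17), Dut, which removes dUTP (1.07 ± 0.20), the checkpoint mediator Clspn (1.39 ± 0.29) and Fbxo5, an inhibitor of the anaphase-promoting complex (1.58 ± 0.36), with limma adjusted p from 0.00592 to 0.028. In knockout bone marrow 35 of the 36 lay below wild type (51.9% of all genes). Of the 36, 2 were called lower, a share near the 4.73% of all genes, and 0 higher. These 2 were the origin subunit Orc5 (-0.74 ± 0.16) and the polymerase epsilon subunit Pole4 (-0.54 ± 0.12). Both fell in spleen too (-0.58 ± 0.14 and -0.42 ± 0.11). Pold4, the small polymerase delta subunit, was the 1 gene of this list that rose in spleen (0.61 ± 0.13, limma adjusted p = 0.00995). Of 16 tested genes of the replication checkpoint and fork repair, 1 was higher in wild type bone marrow than spleen, the checkpoint kinase Chek1 (1.83 ± 0.29), and 1 fell in knockout bone marrow, the damage kinase Atm (-0.57 ± 0.13), both counts being near the shares of all genes (4.34% and 4.73%). The median of the further replication genes between knockout and wild type was -0.39 in bone marrow and -0.09 in spleen. Over both tissues 8 of the 36 were called lower and 1 higher, where 10.3% and 8.81% of all genes were.

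Mitosis genes, which act after replication, were read for comparison. Of 19 tested, 14 were called higher in wild type bone marrow than spleen and 0 lower, where 4.34% of all genes were called higher. Their median was 2.08, against 0.79 for the replication genes. Between knockout and wild type 0 were called in either tissue by limma. An unadjusted p under 0.05 was found for 1 in bone marrow and 3 in spleen (23.8% and 22.1% of all genes). Their median was -0.57 in bone marrow and 0.73 in spleen, where 18 of 19 lay above 0, while the replication genes had -0.09. The proliferation marker Mki67 read 10.05, 9.62 and 9.07 in wild type bone marrow, 9.99, 9.05 and 7.56 in knockout bone marrow, 7.93, 7.47 and 6.54 in wild type spleen and 8.23, 8.05 and 7.95 in knockout spleen. Its knockout spleen arrays all lay above its wild type spleen arrays. The difference between the lists in spleen was not tested.

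**Figure D5:**
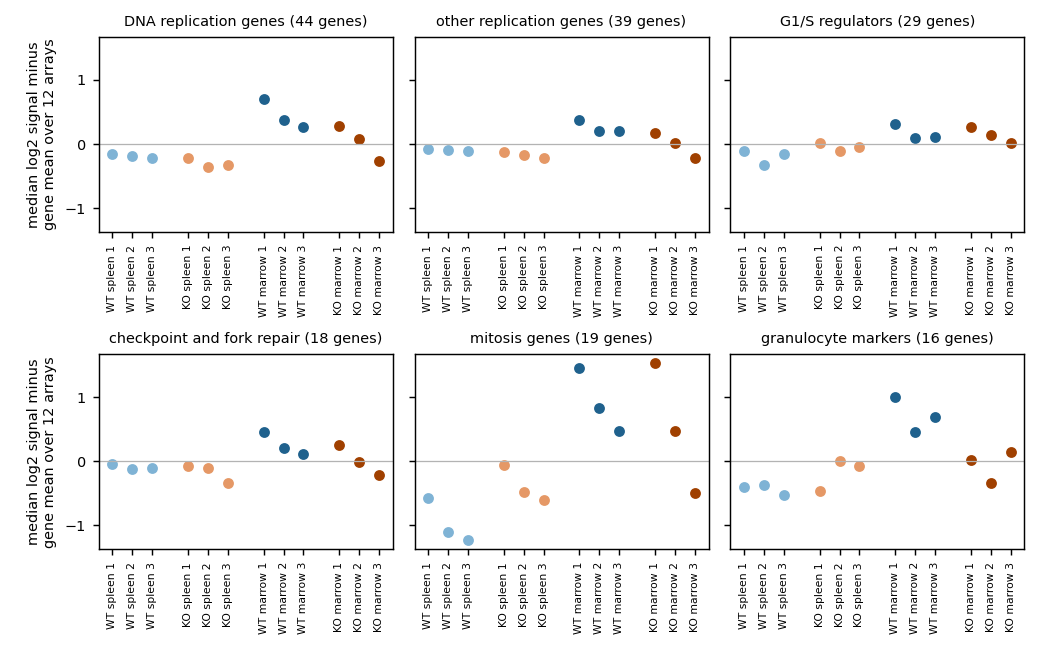
Median log2 signal of each gene list relative to each gene's mean over 12 arrays (y axis) in each array (x axis), for the 44 replication genes and 5 other lists. In spleen the mitosis genes lie at -0.57 to -1.23 in wild type and -0.05 to -0.61 in knockout, while the replication genes lie at -0.16 to -0.22 and -0.22 to -0.36.

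The 3 members below the filter were described without a test. Orc1, the largest origin subunit, read 5.39, 5.18 and 5.08 in wild type spleen, 5.27, 4.85 and 5.02 in knockout spleen, 5.96, 5.76 and 5.22 in wild type bone marrow and 5.13, 5.52 and 4.99 in knockout bone marrow. The groups overlapped within each tissue. Mcm8, a paralogue that works in repair of broken forks rather than in the MCM2-7 ring, ranged from 4.93 to 5.92 over the 12 arrays. Chaf1b ranged from 4.82 to 5.96, with knockout bone marrow at 5.93, 5.70 and 5.42 and wild type bone marrow at 5.96, 5.69 and 5.71. Pcna alone had a second probe set, and its group means differed from those used by at most 0.01.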

How the data were processed

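RNA of sorted NK cells, extracted with Trizol and amplified with the NuGEN Ovation PicoSL kit per the labels' protocols, was hybridised to 12 Affymetrix arrays, 3 in each of 4 groups. The deposited values are log2 signals, made by the authors with Expression Console and RMA, per the submitters' processing notes; their versions, and the genome build, were not given in the sources used here. Platform annotation gave 21789 of 35556 probe sets 1 gene symbol, 1621 several and 12146 none. Array medians ran from 5.75 to 5.87, and the number of arrays limits the precision. Genes above the 40th percentile of mean signal (11963) were fitted with limma 3.58.1 in R 4.3.3, with 4 group means and the run of array numbers in the labels (7 and 5 arrays) as a covariate. Calls needed an adjusted p below 0.05 (Benjamini-Hochberg over all genes tested); errors are standard errors. The run itself had 0 called members in limma (3 at an unadjusted p under 0.05). The fit was tested on simulated data.

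The members, gene lists and tests were chosen with earlier results of these data known. Members were named with values per array when called (up to 4 for each role and comparison, by p) or, in a role with none called, when highest; other lists by up to 4 smallest p-values. Alternatives were other normalizations, filters, probe set rules, covariates, blocks, weights and sets of arrays. Arrays with the same number were not taken as pairs, because the labels tie no wild type animal to a knockout animal. Nor do the labels say whether spleen and bone marrow arrays with the same number share an animal. Deviations of arrays with the same number from their group means correlated from -0.02 to 0.243. The highest value was between genotypes, so the correlations cannot tell whether such arrays share an animal.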

Additional observations from a re-analysis of the deposited data

How the results depend on the processing

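Counts of called members (limma, of 41) moved with the settings. So did calls over all genes, which in the main fit were 2290 over both tissues, 1035 in bone marrow and 1090 in spleen. They were 643 between wild type tissues, 38 between knockout tissues and 1 for the difference of effects. Leaving out 1 array at a time gave 5 to 13 members over both tissues, 0 to 11 in bone marrow and 0 to 1 in spleen. Between wild type tissues it gave 1 to 21, and 0 throughout for the difference of effects and the knockout tissues. Over all genes these fits called 1675 to 2178 over both tissues, 371 to 1006 in bone marrow and 546 to 1083 in spleen. The ranges were 82 to 702 between wild type tissues, 1 to 38 between knockout tissues and 0 to 5 for the difference of effects. Without the run covariate, spleen and the knockout tissues each had 1 (1178 and 87 of all genes). With only the 2 groups compared, spleen had 3 and bone marrow 4 (1105 and 1142 of all genes). Quantile normalization again gave 4 in bone marrow, median centring 11 and array weights 13 (923, 1200 and 1246 of all genes). Array weights gave 28 between wild type tissues (1135 of all genes). The granulocyte covariate gave 5 over both tissues, 0 in bone marrow and 0 between wild type tissues (1521, 55 and 0 of all genes). The erythroid and progenitor covariate gave 2 in spleen, 6 over both and 2 between wild type tissues (714, 961 and 151 of all genes). Leaving out wild type bone marrow 1 and knockout bone marrow 3 together was chosen after seeing the data, like the fits on single runs. It gave 3 over both, 2 between wild type tissues, 1 in spleen, 1 between knockout tissues and 0 in bone marrow. Over all genes the counts were 1514, 111, 976, 30 and 289 in the same order. For single runs, where some groups held 1 array, medians over members are given instead of counts. The first run alone gave -0.42 over both tissues, -0.76 in bone marrow and 0.89 between wild type tissues. The second gave 0.57 between wild type tissues. With the replicate number as a block the counts were 1 in spleen, 9 in bone marrow, 10 over both, 20 between wild type tissues and 0 between knockout tissues. No called member changed sign under an alternative. The cause was not tested, except that fits on fewer arrays have fewer samples by construction. The median over members kept its sign in bone marrow (-0.84 to -0.04), over both tissues (-0.49 to -0.09) and between wild type tissues (0.54 to 0.92). It crossed 0 in spleen (-0.18 to 0.09), for the difference of effects (-0.67 to 0.03) and between knockout tissues (-0.05 to 0.46).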

Other observations

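Regulators of entry into S phase, which act upstream of the replication genes, were read as a list of 29 tested genes. In wild type mice 9 were higher in bone marrow than in spleen and 0 lower, where 4.34% of all genes were called higher. The smallest p-values were those of Myc, a growth transcription factor (1.22 ± 0.12), the G1 kinase Cdk6 (1.03 ± 0.16), and the E2F factors E2f3 (1.62 ± 0.26) and E2f8 (2.12 ± 0.36), with limma adjusted p at most 0.00802. In knockout mice 0 were called between the tissues.

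In spleen, where 0 of the 41 tested members were called, 7 of these regulators rose in the knockout and 1 fell (limma), where 5.48% of all genes were called higher and 3.63% lower. Of 5 dendritic cell markers 4 rose in the same comparison, and 2 of 7 T cell and 2 of 3 monocyte markers fell, whose part was not tested. Myc rose by 1.20 ± 0.12, Cdk4, a G1 kinase that pairs with D-type cyclins, by 0.63 ± 0.11, and Cdc25a, the phosphatase that activates Cdk2, by 0.75 ± 0.16, while the CDK inhibitor Cdkn2d changed by -0.77 ± 0.15. The median of the list was 0.15 in spleen. In knockout bone marrow 2 rose, Ccnd1 (0.69 ± 0.18) and Tfdp2 (0.55 ± 0.13), and 2 fell, Ccnd3 (-0.52 ± 0.12) and E2f2 (-0.60 ± 0.15), with a median of -0.24, where 3.92% of all genes were called higher and 4.73% lower. The list's difference from the replication genes was not tested.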
